A study of Neocallimastix californiae and Anaeromyces robustus with 43 samples.

Results

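The comparison concerns the anaerobic gut fungus Neocallimastix californiae, labelled G1, grown on alfalfa stems or on Avicel as its carbon source. The libraries were chosen by their labels, 3 for alfalfa stems and 3 for Avicel, which makes 6 of the 23 libraries of this fungus and of the 43 libraries of the series. Both groups came from cultures of about 10 ml of Medium C at 39 °C, harvested in exponential growth once the gas pressure had reached at least 5 psi, and messenger RNA of the whole organism was sequenced. The other 17 libraries of this fungus cover reed canary grass, switchgrass, corn stover, cellobiose, maltose and glucose, and enter below as samples that took no part in the comparison. Alfalfa is a legume, and its stems offer a mixed plant cell wall of cellulose, xylan, pectin and lignin. Avicel is microcrystalline cellulose without the other wall polymers. Nothing in the labels ties the replicates to separate cultures, so p-values describe only how these libraries scatter, and that scatter may be technical. Because RNA came from whole cultures, fewer cells of a kind and less RNA per cell cannot be told apart.

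Anaerobic gut fungi live in the digestive tract of herbivores, where they push root-like rhizoids into plant fragments and secrete a large set of cellulases, hemicellulases and esterases, many of them assembled into enzyme complexes called cellulosomes. They ferment the released sugars without oxygen, with hydrogenosomes in place of mitochondria. In many fungi free sugars such as glucose lower the transcription of the genes for wall-degrading enzymes, and short breakdown products of the wall raise it. The files give transcripts by identifier alone, without a gene name, so no role is assigned to any of them and enzyme families could not be followed. For the same reason the identity of the organism could not be checked by marker genes. Few identifiers are printed, and other transcripts are described by rank, level and number.

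The libraries held 4736501, 2583040 and 3161694 expected counts on alfalfa stems and 5102446, 4833975 and 6615754 on Avicel. Replicates on Avicel were closer to each other than those on alfalfa stems. The biological coefficient of variation, the replicate spread beyond counting error, was 0.24 within alfalfa stems and 0.17 within Avicel. Alfalfa stems replicate 2, the shallowest of the 6, stood farthest from Avicel. Its rank correlation with the Avicel libraries across transcripts was 0.82, against 0.88 to 0.91 for the other alfalfa stems libraries. The median correlation of alfalfa stems libraries was 0.89 with Avicel, 0.87 with cellobiose and corn stover, 0.86 with reed canary grass and switchgrass, 0.84 with glucose and 0.82 with maltose, against 0.93 among themselves.

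Growth on alfalfa stems changed transcripts in both directions, while 81 of the 100 transcripts most abundant over both groups were not called. Of 14800 transcripts tested, 3654 (24.7%) differed between alfalfa stems and Avicel, 1885 (12.7%) higher and 1769 (12%) lower on alfalfa stems (edgeR quasi-likelihood test, Benjamini-Hochberg adjusted p under 0.05). At an unadjusted p under 0.05 the number was 5569 (37.6%). The median called rise was 3.56-fold, and 794 transcripts rose by at least 4-fold and 269 by at least 8-fold. The median called fall was 2.27-fold, and 263 transcripts fell by at least 4-fold and 96 by at least 8-fold. The standard error of the log2 fold change had a median of 0.48 among the rises and 0.28 among the falls. The median abundance of the transcripts that rose, in transcripts per 1000000 (TPM, corrected for length), was 4.22 TPM on alfalfa stems and 1.19 TPM on Avicel, and that of the transcripts that fell was 4.39 TPM on alfalfa stems and 10.2 TPM on Avicel. All tested transcripts had a median of 2.56 TPM on alfalfa stems and 2.33 TPM on Avicel.

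The number of calls depended on single libraries. It was 1969 (928 higher, 1041 lower) without alfalfa stems replicate 2, 2426 (1304 higher, 1122 lower) without Avicel replicate 1 and 2425 (1132 higher, 1293 lower) without Avicel replicate 3. Of the calls left without alfalfa stems replicate 2, 919 of the higher and 1023 of the lower ones were also called with all libraries. No transcript was called in the opposite direction under any alternative that kept the transcript as the unit. Scaling moved the balance: with library size alone the split was 2430 higher and 1167 lower, and the log2 fold change over all tested transcripts had a median of 0.25 in place of 0.07. Directions are therefore relative to TMM scaling, and which side held more calls was not stable. The libraries of the 2 substrates did not overlap in 6950 tested transcripts (47%), of which 3575 (24.2%) were higher and 3375 (22.8%) lower on alfalfa stems. Among the called transcripts they did not overlap in 1817 of the 1885 higher and 1748 of the 1769 lower ones.

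**Figure D1:**
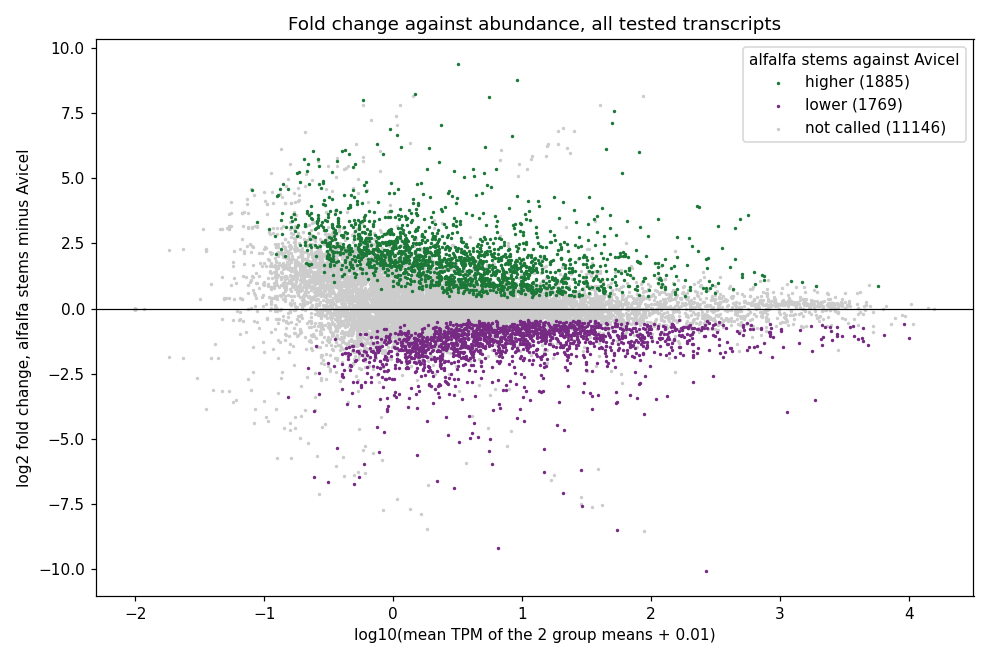
Log2 fold change of alfalfa stems minus Avicel (vertical axis) against the mean abundance of each tested transcript (horizontal axis, log10 of the mean TPM of both groups + 0.01). Points are the 1885 transcripts called higher on alfalfa stems, the 1769 called lower and the 11146 not called, and few called points lie far from 0 at the abundant end on the right.

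The most abundant transcripts were largely common to both substrates. The lists of the 100 most abundant transcripts by TPM on alfalfa stems and on Avicel shared 80 members, and the lists of the 10 most abundant shared 8. Of the 100 on Avicel, 1 was called higher and 25 lower on alfalfa stems. Of the 100 on alfalfa stems, 2 were called higher and 11 lower. A ranking over both groups can leave out transcripts abundant on 1 substrate, such as Locus187v1rpkm1607.33, ranked 45 on Avicel and 146 over the 6 libraries. Ranked by mean TPM over the 6 libraries, the first 100 transcripts held 1 called higher and 18 called lower on alfalfa stems, none of them by 4-fold or more. Their median absolute log2 fold change was 0.21, against 0.42 for the next 900, 0.52 for the 4000 after those and 0.74 for the rest. In the next 900 the test called 68 higher and 171 lower, in the 4000 after those 575 higher and 801 lower, and in the 9800 rarer transcripts 1241 higher and 779 lower. The standard error of the log2 fold change also grew with rarity, with a median of 0.22 in the first 100 transcripts and 0.51 in the rarest class. Among the first 100, library size alone called 27 higher and 18 lower, while DESeq2's size factors called 1 higher and 14 lower. Limma on TPM, which differs in unit, scaling and test at once, called 15 higher and 22 lower.

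The 2 transcripts with the highest TPM in the 6 libraries were not called. Locus57v1rpkm3974.36 had 5086, 5146 and 4400 counts per 1000000 after TMM scaling (CPM) on alfalfa stems and 5252, 4712 and 4852 CPM on Avicel. The groups overlapped, and the log2 fold change was -0.02 ± 0.26 (SE; 95% confidence interval -0.56 to 0.52). Locus35v1rpkm4979.72 had 23448, 25605 and 21025 CPM on alfalfa stems and 23218, 22136 and 23053 CPM on Avicel, again overlapping, with a log2 fold change of 0.03 ± 0.28 (interval -0.54 to 0.61). In TPM these transcripts averaged 16003 and 14636 TPM on alfalfa stems and 15083 and 13490 TPM on Avicel. Of the other carbon sources, Locus57v1rpkm3974.36 averaged 4121 ± 750 CPM on corn stover, 3049 ± 390 CPM on cellobiose and 1276 ± 548 CPM on glucose (SD, n = 3 each). A second version of Locus35 was tested and not called, and the printed version held at least 95.9% of the counts of its locus in each of the 6 libraries.

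The share of the most abundant transcripts was compared next. In each library, the 100 most abundant transcripts of that library held 37.4%, 38.0% and 36.3% of the counts on alfalfa stems and 41.4%, 40.3% and 41.1% on Avicel. The 10 most abundant held 11.3% ± 0.210 on alfalfa stems and 13.1% ± 0.277 on Avicel (SD, n = 3 each). The groups did not overlap in either measure, and the exact two-sided permutation test gave p = 0.1, the smallest that 3 against 3 libraries allow. Transcripts with at least 1 count numbered 18380, 17228 and 17596 on alfalfa stems and 17549, 17468 and 18265 on Avicel, which overlapped, but the Avicel libraries were deeper. Thinned to 2583032 counts each, a step chosen after seeing the data, the alfalfa stems libraries held 17049, 17228 and 17138 detected transcripts and the Avicel libraries 15990, 16124 and 16119. At equal depth the alfalfa stems libraries were thus all above the Avicel libraries, by 1061 transcripts on average (exact two-sided permutation p = 0.1).

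Among the transcripts that rose by at least 4-fold, the most abundant on alfalfa stems was Locus1066v1rpkm113.67. It had 1695, 1581 and 1508 CPM on alfalfa stems and 117, 141 and 143 CPM on Avicel. Every alfalfa stems library was far above every Avicel library, and the log2 fold change was 3.58 ± 0.47 (SE; edgeR adjusted p = 3.94e-05). Its abundance was 1046 ± 61.4 TPM on alfalfa stems and 82.8 ± 12.7 TPM on Avicel (SD, n = 3 each). The other plant substrates gave low levels: it averaged 8.24 ± 3.40 CPM on reed canary grass and 32.8 ± 12.1 CPM on corn stover (n = 3 each), and had 34.8 and 121 CPM in the 2 switchgrass libraries. Cellobiose, the disaccharide unit of cellulose, gave 497 ± 112 CPM, maltose 15.9 ± 13.2 CPM and glucose 24.5 ± 3.31 CPM (n = 3 each). Cellobiose against glucose, which shares no library with the comparison, differed by a log2 fold change equal to 4.33 ± 0.49 (edgeR adjusted p = 5.55e-06), and the grasses against cellobiose gave -4.19 ± 0.35 (edgeR adjusted p = 1.62e-08). The next most abundant rise had the same order of group means over the 8 carbon sources. It had 1964, 1930 and 1665 CPM on alfalfa stems and 139, 190 and 184 CPM on Avicel, and averaged 622 CPM on cellobiose, 9.27 to 104 CPM on the grasses and 40.6 CPM on glucose.

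The largest fold among the eligible rises, those with at least 10 CPM on average in the higher group and groups that did not overlap, belonged to Locus1230v1rpkm92.53. It had 17.4, 4.67 and 9.27 CPM on alfalfa stems, from 125 counts in all, and no counts in any Avicel library (edgeR adjusted p = 8.90e-04). Set against a floor of 3 counts over the 3 Avicel libraries, it was at least 51.6-fold higher on alfalfa stems, a bound that covers counting error only. Glucose gave 8.55 ± 4.51 CPM and cellobiose 1.90 ± 0.716 CPM (SD, n = 3 each), and the 2 switchgrass libraries held no counts of it. Its level on alfalfa stems therefore overlapped that on glucose, with 3.60 to 12.4 CPM in the glucose libraries. The 10 eligible rises of largest fold, out of 950, reached 10.4 to 229 CPM on alfalfa stems and 0 to 3.31 CPM on Avicel. Of these 10, 4 were called higher and 3 lower on the grasses than on glucose, when 18% of all tested transcripts were called higher and 31.4% lower in that contrast.

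The most abundant transcript that fell by at least 4-fold was Locus187v1rpkm1607.33. It had 1100, 1490 and 1386 CPM on alfalfa stems and 15439, 13755 and 15415 CPM on Avicel. The groups were far apart, and the log2 fold change was -3.49 ± 0.33 (SE; edgeR adjusted p = 9.62e-07). By TPM it ranked 523 on alfalfa stems, at 321 ± 51.0 TPM, and 45 on Avicel, at 3389 ± 25.3 TPM (SD, n = 3 each). All 8 grass libraries were above the alfalfa stems libraries: it averaged 16483 ± 3417 CPM on reed canary grass, 17202 ± 6073 CPM on corn stover and 14974 ± 4261 CPM on switchgrass (n = 2), 955 ± 425 CPM on cellobiose, 5749 ± 536 CPM on maltose and 3324 ± 572 CPM on glucose (n = 3 for the others). Set side by side, and sharing libraries, the log2 fold changes against glucose were -1.33 ± 0.30 on alfalfa stems and 2.16 ± 0.31 on Avicel, and alfalfa stems against the grasses gave -3.61 ± 0.31. Locus187 has 6 other versions, of which 5 were tested and 2 were also called lower. The printed version held 62.5% to 71.9% of the counts of its locus on alfalfa stems and 94.4% to 94.9% on Avicel, and the locus as a whole had 1947 CPM on alfalfa stems and 15714 CPM on Avicel.

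The second most abundant fall had 726, 451 and 697 CPM on alfalfa stems and 9629, 9870 and 9641 CPM on Avicel, and its mean over each grass lay between 3770 and 6414 CPM, while cellobiose gave 123 CPM and glucose 149 CPM. Of the 10 most abundant falls of at least 4-fold, 6 were called higher on the grasses than on glucose, 3 were called lower and 1 was not called, against 18% higher and 31.4% lower over all tested transcripts. These 10 spanned 0 to 321 TPM on alfalfa stems and 152 to 3389 TPM on Avicel. The 1 not called on the grasses is Locus26606v1rpkm0.00, described next, which gave the 0 TPM. It averaged 537 TPM on Avicel but only 26.1 CPM. The largest fold among the eligible falls belonged to Locus26606v1rpkm0.00, with no counts in any alfalfa stems library and 31.1, 10.1 and 37.2 CPM on Avicel, from 401 counts. Against a floor of 3 counts over the 3 libraries it was at least 92.6-fold lower on alfalfa stems, a bound that covers counting error only. The 95% confidence interval of its log2 fold change, which includes replicate spread, was -16.5 to -3.63 (edgeR adjusted p = 0.0247). The transcript was also erratic elsewhere, at 0 to 20.4 CPM between the cellobiose libraries. The call was lost without alfalfa stems replicate 1 (edgeR adjusted p = 0.0707), 2 (0.0719) or 3 (0.0543) and without Avicel replicate 1 (0.0526) or 3 (0.0546), and without the filter on low counts (0.0622), while DESeq2 gave 0.00176.

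**Figure D2:**
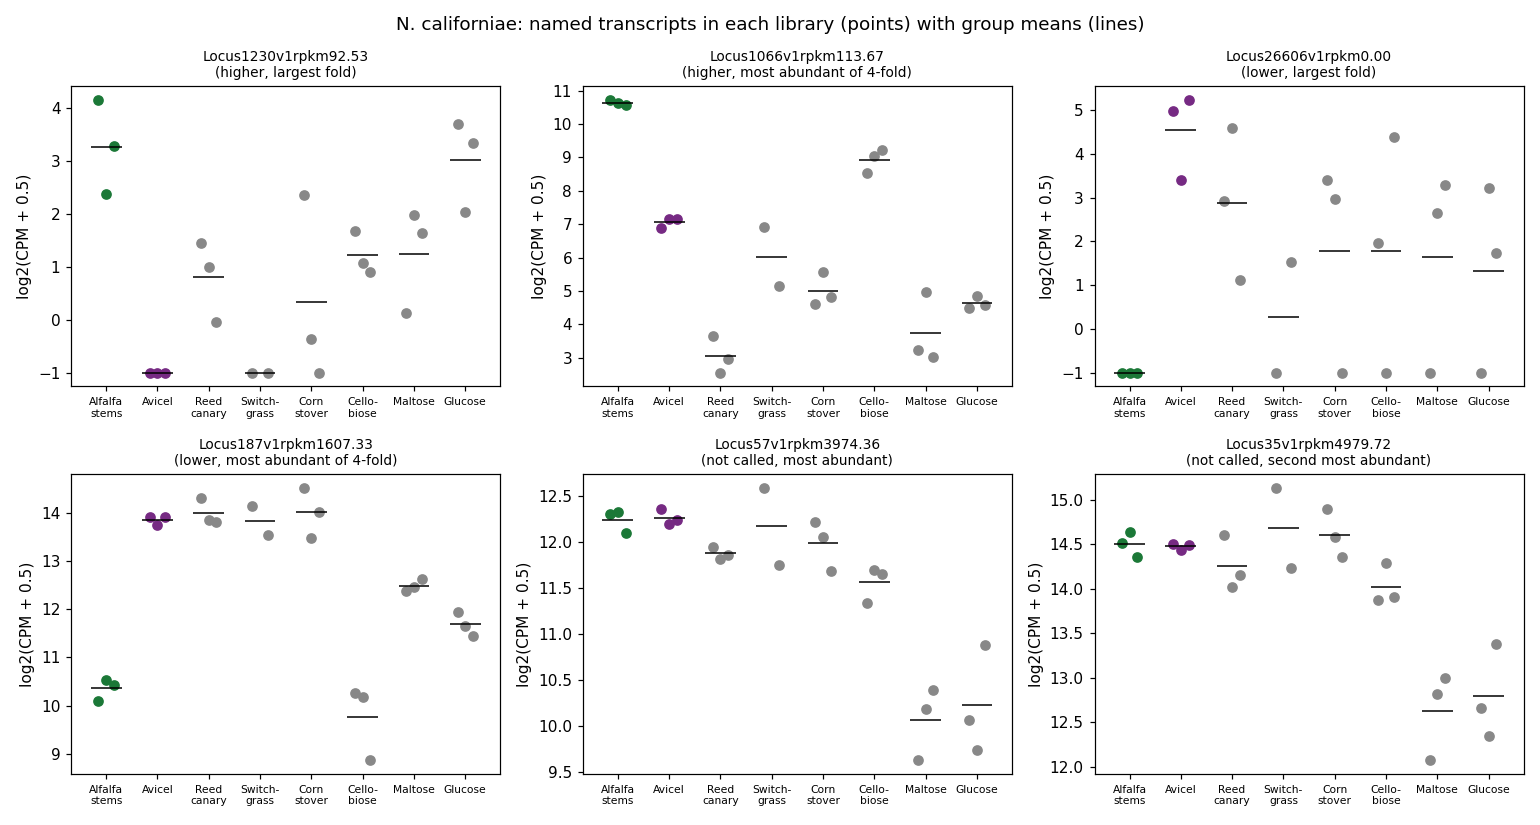
Level of the 6 named transcripts in each library, as log2(CPM + 0.5) on the vertical axis, by carbon source on the horizontal axis, with alfalfa stems in green, Avicel in purple and the other carbon sources in grey. Points are libraries and lines are group means of the plotted values, and Locus187v1rpkm1607.33 overlaps between the grasses and Avicel, while all alfalfa stems and cellobiose libraries are lower.

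Transcripts without any count on 1 of the substrates were few and mostly rare. Of the tested transcripts, 117 had no counts on alfalfa stems and 186 had none on Avicel. Of those silent on Avicel, 41 were called higher on alfalfa stems, with a median of 1.16 CPM there, and 2 of them reached 10 CPM. Of these 41, only 1 had no counts in all 17 other libraries, and 32 averaged at least 1 CPM on maltose, 26 on glucose, 24 on corn stover, 20 on reed canary grass, 15 on cellobiose and 12 on switchgrass. Of those silent on alfalfa stems, 14 were called lower there, with a median of 2.53 CPM on Avicel, and 2 of them reached 10 CPM. None of the 14 was silent in all 17 other libraries, and all 14 had counts on both reed canary grass and corn stover. The filter on low counts used all libraries of the fungus together. A transcript silent on 1 substrate could pass it only through other libraries, so presence on other carbon sources is partly fixed in advance.

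Whether the transcripts called between alfalfa stems and Avicel also respond to grass biomass was examined in the contrast of the 3 grasses with glucose, which shares no library with the comparison. That contrast called 49.4% of all tested transcripts, 18% higher and 31.4% lower. Of the 1885 transcripts higher on alfalfa stems, 510 (27.1%) were also higher on the grasses than on glucose, which is 19.2% of all transcripts that were higher on the grasses. A larger group, 807 (42.8%), was lower on the grasses than on glucose. Of the 1769 transcripts lower on alfalfa stems, 195 (11.0%) were higher and 877 (49.6%) lower on the grasses than on glucose, which is 7.33% and 18.9% of the transcripts called in those directions. The median log2 fold change of the grasses against glucose was -0.43 in the higher list and -0.54 in the lower list, against -0.25 over all tested transcripts.

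The group that was higher on alfalfa stems and lower on the grasses than on glucose rested on alfalfa stems replicate 2. Without that library 928 transcripts were called higher on alfalfa stems, of which 364 (39.2%) were higher and 241 (26.0%) lower on the grasses than on glucose, when 17.9% and 31.5% of all tested transcripts were. The 807 also fell to 469, 421 and 421 without Avicel replicate 1, 2 and 3, but there the higher list itself shortened to 1304, 1315 and 1132 transcripts. The share lower on the grasses was 36.0% (against 24.3% of all tested transcripts) without Avicel replicate 1 and 37.2% (against 30.8%) without replicate 3, and the 421 of 1315 without replicate 2 stood against 24.9%. Of the 30 alternatives, only the one without alfalfa stems replicate 2 took that share below the one of all tested transcripts. Among the 807, the median log2 difference from the Avicel mean was 1.40, 2.31 and 1.25 in alfalfa stems replicate 1, 2 and 3. In that order 797, 806 and 788 of them lay above all 3 Avicel libraries, as did 1868, 1873 and 1845 of the 1885. These transcripts were chosen as higher in the same libraries, so such counts are nearly fixed in advance. Replicate 2 had the lowest total of the 6 libraries, and the part of depth in this result was not tested. With library size alone the share of the higher list that was lower on the grasses was 54.4%, against 52.8% of all tested transcripts. The 877 became 494 of 1122 (44.0%, against 24.3% of all tested transcripts) without Avicel replicate 1, and the 195 became 115 of 1041 (11.0%, against 17.9%) without alfalfa stems replicate 2. With a 2-fold threshold in every test, 15.8% of the lower list were higher on the grasses, against 6.09% of all tested transcripts, which turns that comparison round. It also turned with library size alone (9.85% against 9.36%) and without the filter on low counts (12.6% against 11.4%). In all 30 alternatives run for this contrast the share of the higher list that was higher on the grasses, and the share of the lower list that was lower there, stayed above the share of all tested transcripts. These alternatives reuse the same libraries, so they are not independent of each other.

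**Figure D3:**
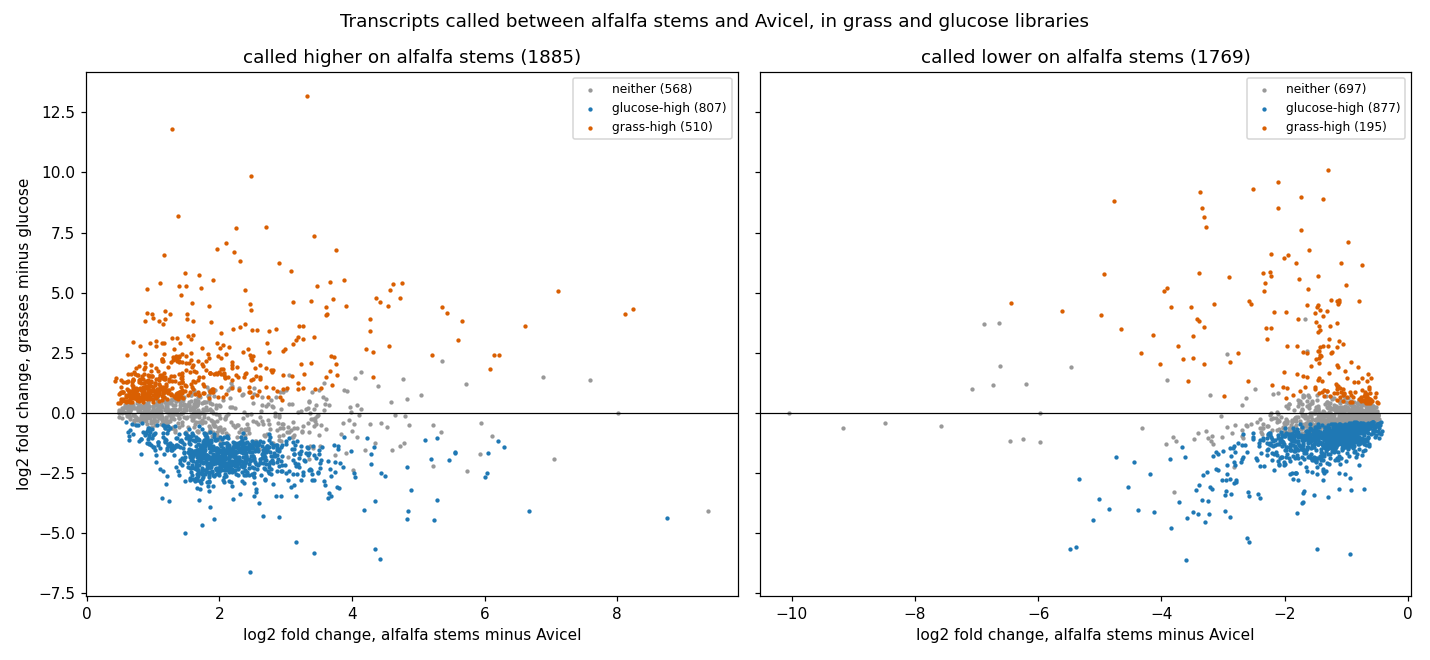
Log2 fold change of the grasses minus glucose (vertical axis) against that of alfalfa stems minus Avicel (horizontal axis) for transcripts called higher (left) and lower (right) on alfalfa stems. Colours mark transcripts called higher on the grasses than on glucose (grass-high, 510 left and 195 right), lower (glucose-high, 807 and 877) or neither (568 and 697).

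The share that also responded on the grasses differed with the size of the rise. Of the 316 transcripts that rose by less than 2-fold on alfalfa stems, 162 (51.3%) were higher and 34 lower on the grasses than on glucose, against 18% and 31.4% of all tested transcripts. Of the 525 that rose by 4-fold to 8-fold, 15.4% were higher and 66.3% lower, at a median of 2.04 TPM on alfalfa stems. Of the 269 that rose by 8-fold or more, 23.4% were higher and 39.8% lower. Without alfalfa stems replicate 2 the shares were 56.9% and 6.57% of the 137 below 2-fold, 31.9% and 39.2% of the 204 from 4-fold to 8-fold, and 29.4% and 32.9% of the 170 above. Among the falls of 8-fold or more, 29.2% of 96 were higher and 38.5% lower on the grasses. Of the 636 falls below 2-fold, 8.02% were higher and 43.7% lower, so that in both classes more falls were lower than higher on the grasses.

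The share of each library's counts held by these groups was followed over all carbon sources. The cellobiose and maltose libraries are in neither contrast that chose these groups, and entered those fits only through scaling, the filter and the shared spread. The shares on the other carbon sources follow in part from the choice. All values are a description. The whole higher list held 11.2% ± 1.35 of the counts on alfalfa stems and 4.03% ± 0.137 on Avicel, and the whole lower list 15.1%, 12.6% and 17.3% on alfalfa stems and 29.2%, 29.3% and 29.7% on Avicel. The 510 transcripts higher on alfalfa stems and on the grasses held 5.89% ± 0.768 of the counts on alfalfa stems and 2.37% ± 0.0470 on Avicel (SD, n = 3 each). They held 5.96% on reed canary grass, 7.34% on switchgrass and 7.39% on corn stover on average, 3.30% ± 0.198 on cellobiose and 2.74% ± 0.347 on maltose. The 807 transcripts higher on alfalfa stems and lower on the grasses held 2.62% ± 0.568 on alfalfa stems and 0.856% ± 0.0168 on Avicel. Maltose gave 5.31% ± 1.15, cellobiose 2.87% ± 0.834 and glucose 4.62% ± 1.35, so the alfalfa stems libraries, at 2.16% to 3.25%, were above all Avicel libraries, overlapped those of cellobiose and glucose and were below those of maltose.

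Among the transcripts that fell on alfalfa stems, the 195 that were higher on the grasses than on glucose held 2.89% ± 0.243 of the counts on alfalfa stems and 6.70% ± 0.116 on Avicel (SD, n = 3 each). Their share on alfalfa stems overlapped that on cellobiose, 2.79% ± 0.166, and maltose, 3.12% ± 0.165, while the 8 grass libraries held 6.55% to 7.60%. Locus187v1rpkm1607.33 and the second most abundant fall made up 52.6% of this difference between alfalfa stems and Avicel, with 0.198% of the counts on alfalfa stems and 2.21% on Avicel. The other 193 transcripts, a split made after seeing the data, held 2.69% ± 0.233 on alfalfa stems and 4.50% ± 0.111 on Avicel (SD, n = 3 each), and 5.07% to 6.07% in the grass libraries. In the other 5 classes the 2 members with the greatest difference made up 17.1% to 25.4% of it. The 877 that were lower on the grasses than on glucose held 6.04% ± 1.15 on alfalfa stems and 12.2% ± 0.0858 on Avicel. They held 10.9% ± 0.249 on cellobiose, 11.8% ± 1.77 on maltose and 3.66% to 6.45% in the grass libraries. In this class alfalfa stems overlapped the grasses, and in the class of 195 they did not overlap.

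**Figure D4:**
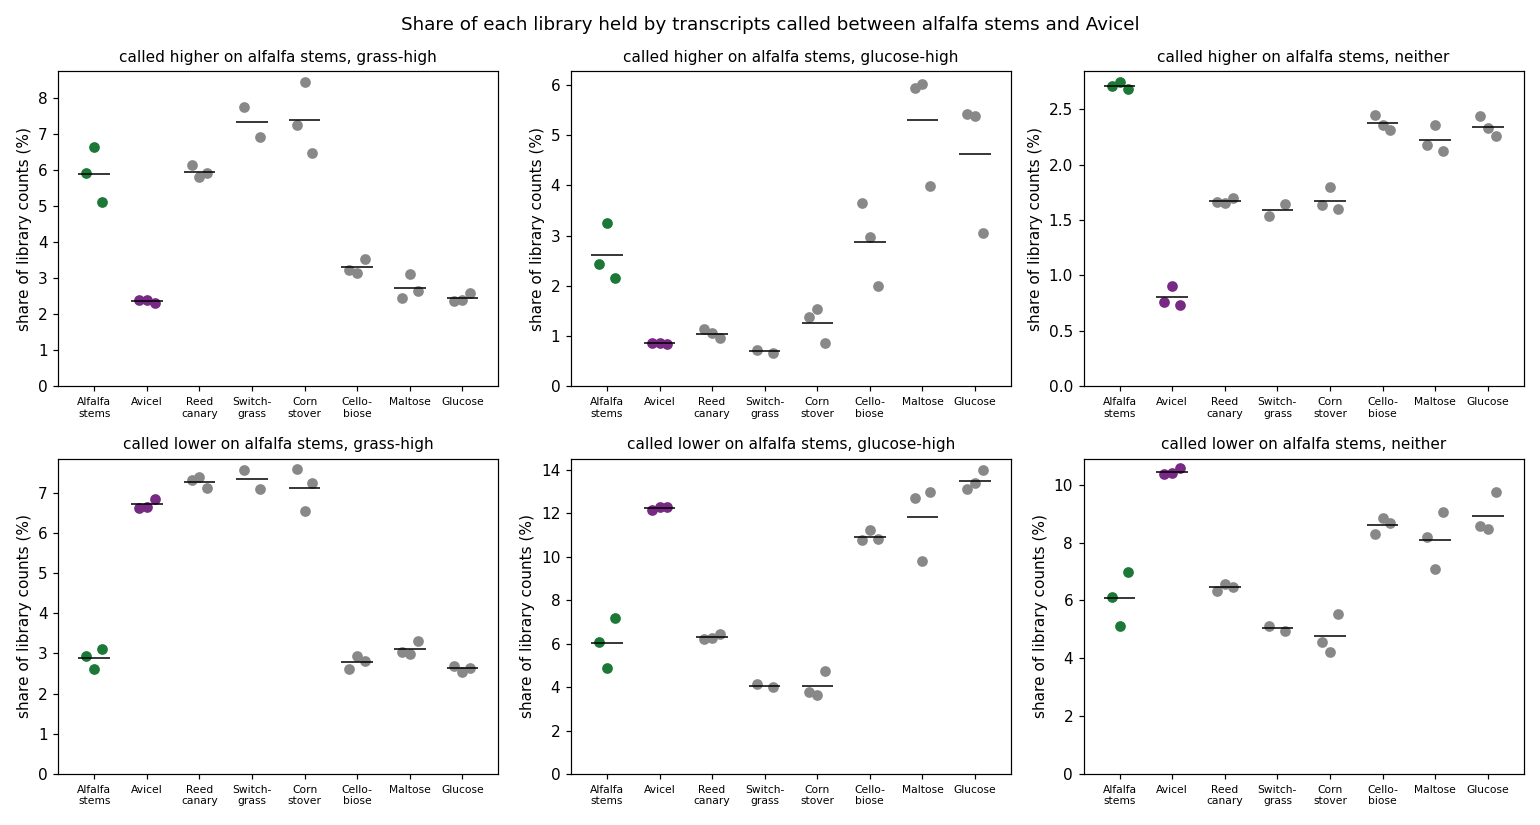
Share of library counts in percent (vertical axes, from 0) held by the transcripts called higher (top row) or lower (bottom row) on alfalfa stems, split by their call on the grasses against glucose, in all 23 libraries by carbon source. Points are libraries and lines are group means. In the bottom left panel alfalfa stems lie at 2.62% to 3.10%, beside the sugars, and Avicel at 6.63% to 6.84%, near the grasses.

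Set against cellobiose in place of glucose, the grasses differed in 28.9% of all tested transcripts, 11.3% higher and 17.6% lower. Of the transcripts lower on alfalfa stems, 844 (47.7%) were also lower on the grasses than on cellobiose, which is 32.4% of all transcripts lowered in that contrast, and 117 (6.61%) were higher. Of the transcripts higher on alfalfa stems, 395 (21.0%) were higher on the grasses and 302 lower. The 302 were 11.6% of the transcripts lowered in that contrast. As a share of the higher list, the 302 lay below the 17.6% of all tested transcripts. That share exceeded the one of all tested transcripts in only 8 of the 30 alternatives. The 844 became 554 of 1041 (53.2%, against 18.1% of all tested transcripts) without alfalfa stems replicate 2 and 562 of 1122 (50.1%, against 15.3%) without Avicel replicate 1. The count of 302 varied with several libraries, as did the share of all tested transcripts. Without alfalfa stems replicate 2 it was 118 (12.7% of the higher list, against 18.1% of all tested transcripts). Without an Avicel library it was 152 to 173 (12.5% to 13.4%, against 14.9% to 16.8%). It was 123 (6.42%, against 11.0%) without cellobiose replicate 1 and 142 (7.98%, against 10.3%) without replicate 2. Only without cellobiose replicate 3, at 617 (28.8%, against 20.3%), did the share of these lie above. Cellobiose against glucose called 7.36% of all tested transcripts, 5.04% higher and 2.32% lower. It called 159 (8.44%) of the higher list higher and 93 (4.93%) lower, and 97 (5.48%) of the lower list higher and 51 (2.88%) lower. Some single libraries, when left out, moved at least 1 of these 4 counts by over 1.5 times. They were every glucose, cellobiose and Avicel library, alfalfa stems replicate 2 and corn stover replicate 2. The 93 became 40 to 231 and the 97 became 58 to 151. Without glucose replicate 2 the 159 became 98 (5.62%, against 2.81% of all tested transcripts), the 93 became 40 (2.29%, against 1.03%) and the 51 became 31 (1.83%, against 1.03%). The 231, without cellobiose replicate 1, were 12.1%, against 4.60%. The 58 were 5.57%, against 5.07%, and the 151 were 9.12%, against 6.99%. In all 30 alternatives both shares of the higher list exceeded those of all tested transcripts.

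Reads can fit several versions of the same locus, which makes a version's own value less certain than the locus total. Of 13982 loci tested, 697 had at least 2 tested versions, and 216 of these had a called version. In 68 loci at least 2 versions were called, in the same direction in 65 and in opposite directions in 3. In those 3 loci the CPM summed over the tested versions differed by less than 2-fold between alfalfa stems and Avicel. The ratio of counts to TPM, which is proportional to the length that reads can cover, had a median of 1.09 in the higher list and in the lower list, relative to the median of all tested transcripts, and 0.969 in the transcripts not called, with middle ranges (quartiles) of 0.687 to 1.62, 0.718 to 1.73 and 0.572 to 1.53.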

How the data were processed

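The authors deposited expected counts per transcript, estimated by RSEM per the submitters' processing notes, and TPM values made from them. No source used here names the version, the aligner or the reference transcripts. In the deposited expected counts 10.2% of values were not whole (tolerance 1e-09), and they were rounded. Libraries were TruSeq Stranded mRNA, per the labels' protocols. Transcripts were kept by filterByExpr (minimum count 10, total 15), which left 14800 of 29649 with 99.8% of counts. edgeR 4.0.16 in R 4.3.3 fitted a quasi-likelihood model with TMM scaling to all 23 libraries of the fungus, 1 mean per carbon source, so that all groups share the spread estimate. P-values were Benjamini-Hochberg adjusted over all tested transcripts. The biological coefficient of variation was 0.29. The fit was tested on simulated data with 50 planted changes of each size, of which it called 38% at 2-fold and 92% at 4-fold. Changes were planted only in transcripts with at least 5 CPM over the 6 libraries, and all others were set equal between the groups. The simulation gave 168 calls, 5 of them false, against 3654 calls in the data. A transcript not called may therefore have changed by 2-fold, and what the fit misses among rarer transcripts was not tested. No 2 libraries of a group agreed within sampling noise (chi-square per degree of freedom at least 3.49).

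Transcripts were named by rule: per direction the largest fold and, from 4-fold up, the highest TPM among calls with at least 10 CPM and groups that did not overlap, and the 2 most abundant not called. The members and lists were chosen with earlier results of these data known. No reference sequence or annotation was used, so the enzyme family lists had no identifiers to match and gave no result. Tables of the other fungus were not used. The alternatives were DESeq2 1.42.0, its size factors, library size alone, no filter, a 2-fold threshold, a replicate block, only the 2 groups, counts summed per locus, limma 3.58.1 on log2(TPM + 1), and each library left out.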

Additional observations from a re-analysis of the deposited data

How the results depend on the processing

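Of the pairs of a result and an alternative that leaves out no library, 137 kept their direction and their side of the threshold or stayed within 1.5 times, 25 counts moved by over 1.5 times, 2 calls of Locus26606v1rpkm0.00 were lost (adjusted p = 0.0622 without the filter and 0.103 at the 2-fold threshold) and 1 difference reversed. The cause was not tested unless stated. The reversed one is the number of detected transcripts, lower by 26 on alfalfa stems as deposited and higher by 1061 after thinning, which was chosen after seeing the data and by construction equalises depth. The 2-fold threshold, stricter by construction, left 484 calls, 282 higher and 202 lower. Of those, the grasses against glucose called 68 of the higher list higher and 33 lower, and 32 of the lower list higher and 58 lower. As shares these were 24.1% and 11.7% of the higher list and 15.8% and 28.7% of the lower list. Of all tested transcripts, 6.09% were higher and 10.78% lower in that contrast at this threshold. The excess of the higher list that was lower on the grasses shrank to under 1 percentage point, and the share of the lower list that was higher there moved above that of all tested transcripts. The grasses against cellobiose called 35 (12.4%), 20 (7.09%), 28 (13.9%) and 53 (26.2%) in the same order. Over all tested transcripts 2.97% were higher and 3.01% lower in that contrast. The shares of the 20 and the 28 thus lay above those of all tested transcripts, while without the threshold they lay below. Cellobiose against glucose called 22 (7.80%), 3 (1.06%), 7 (3.47%) and 8 (3.96%), against 1.68% higher and 0.527% lower over all tested transcripts. With library size alone 1167 were called lower. Then 1322 of the higher list (54.4%, against 52.8% of all tested transcripts) were lower on the grasses than on glucose. In the same contrast 115 of the lower list (9.85%, against 9.36%) were higher. Of the higher list, 898 (37.0%, against 38.6%) were lower on the grasses than on cellobiose. Of the same list, 158 (6.50%, against 3.17%) were lower on cellobiose than on glucose. Without the filter the last 2 counts were 183 (12.1%, against 8.55%) and 59 (3.90%, against 1.03%). Counts summed per locus gave 167 of the lower list (8.70%, against 6.95%) higher on cellobiose than on glucose.

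Same-numbered libraries of alfalfa stems and Avicel deviated together by correlations of 0.00695, -0.0549 and 0.0367. These values show no pairing by replicate number, and 3 libraries per group are too few to exclude one. With the replicate block 2171 were called higher and 1882 lower. Of that higher list, 576 (26.5%, against 20.5% of all tested transcripts) were lower on the grasses than on cellobiose. Of the same list, 246 (11.3%, against 3.96%) were lower on cellobiose than on glucose. Each library in turn left out gave 1969 to 4023 calls, 928 to 2145 higher and 1041 to 1901 lower. The counts of the higher list higher, the higher list lower, the lower list higher and the lower list lower ranged over 364 to 602, 241 to 1021, 115 to 288 and 494 to 913 for the grasses against glucose. They ranged over 282 to 426, 118 to 617, 81 to 133 and 554 to 854 for the grasses against cellobiose, and over 98 to 216, 40 to 231, 58 to 151 and 31 to 52 for cellobiose against glucose. The log2 fold change of Locus26606v1rpkm0.00 ranged from -10.54 to -9.69. DESeq2 called 2209 higher and 1661 lower, and limma on TPM 1476 and 1295. The median standard error of the log2 fold change was 0.40 over all tested transcripts and 0.51 in the rarest class, which limits the small changes that depth could show.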
